A study of Mus musculus with 7 samples.

Results

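The Toll-like receptors are a family of innate immune receptors, and the 10 members described here are the genes Tlr1, Tlr2, Tlr3, Tlr4, Tlr5, Tlr6, Tlr7, Tlr8, Tlr9 and Tlr13. They were found by matching the gene symbol exactly in a table of 23930 genes, and each of the 10 symbols matched 1 row. The measured material was RNA from GFP-positive cells sorted from hind leg muscle of adult mice that carry a tamoxifen-inducible Pax7-CreERT2 driver and a floxed-stop fluorescent reporter, so the mark depends on recombination in cells that express Pax7 and is kept by their descendants. The mice were 12 weeks old when labelling was induced, were kept for 4 weeks in normocapnia (3 libraries, NC1 to NC3) or hypercapnia, a raised level of carbon dioxide (4 libraries, HC1 to HC4), and were 16 weeks old at collection. Both groups carried the same reporter and received tamoxifen. The study's methods also describe a cardiotoxin injury of the muscle before collection, which the sample labels do not give. The labels write the strain as C57BL/6 for the first library and raise the number by 1 per sample to C57BL/12 for the last, while the growth notes call all animals C57/B6 littermates.

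Toll-like receptors sense conserved parts of microbes and products of damaged tissue. Tlr1, Tlr2, Tlr4, Tlr5 and Tlr6 act mainly at the cell surface, where they bind lipoproteins, lipopolysaccharide and flagellin, and Tlr3, Tlr7, Tlr8, Tlr9 and Tlr13 act in endosomes, where they bind nucleic acids. Most signal through the adaptor Myd88 to NF-kB and interferon regulatory factors, Tlr3 signals through Ticam1, and Tlr4 uses both. Macrophages, dendritic cells and neutrophils express much of the family, and macrophages are numerous in injured muscle.

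RefSeq promoter windows, running from 250 bases before to 50 bases after a transcript start, were matched by symbol for 8 of the 10 genes, in 10 entries of the GRCm38.p6 build. The hexamer GAGGAA, a core that the myeloid factor PU.1 binds, was searched on both strands, and 4 of the 10 entries held it (1 entry of Tlr1, and those of Tlr8, Tlr9 and Tlr13), beside 28.3% of all 32851 windows. The NF-kB consensus matched in 2 entries (Tlr2 and Tlr3), beside 8.46% of all windows, and the consensus of the interferon-stimulated response element in 0, beside 0.426%. TATAAA matched in 2 entries (Tlr6 and Tlr8), beside 13.6%. A match describes letters in a window and is not a bound site. The windows of Tlr9, Tlr8 and Tlr2 are printed 5′ to 3′ on the gene's strand, with matches of the hexamer and of the NF-kB consensus on either strand in capitals. The Tlr9 window is shown because Tlr9 passed the test of the group difference before adjustment, the Tlr8 window because Tlr8 differed most between sets of libraries, and the Tlr2 window because Tlr2 varied most within normocapnia.
Tlr9 (chr9:106222348-106222647, plus strand): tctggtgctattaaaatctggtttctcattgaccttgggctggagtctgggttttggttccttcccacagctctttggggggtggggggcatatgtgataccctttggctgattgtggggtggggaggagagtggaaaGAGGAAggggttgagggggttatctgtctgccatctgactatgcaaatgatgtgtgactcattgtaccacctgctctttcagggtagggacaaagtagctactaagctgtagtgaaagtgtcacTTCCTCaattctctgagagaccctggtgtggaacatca
Tlr8 (chrX:167264280-167264579, minus strand): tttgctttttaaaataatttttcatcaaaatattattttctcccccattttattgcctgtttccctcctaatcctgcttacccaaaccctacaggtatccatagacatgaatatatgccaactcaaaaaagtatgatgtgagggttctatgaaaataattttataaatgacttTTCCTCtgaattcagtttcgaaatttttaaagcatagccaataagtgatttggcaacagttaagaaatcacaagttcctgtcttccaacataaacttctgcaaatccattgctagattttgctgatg
Tlr2 (chr3:83841559-83841858, minus strand): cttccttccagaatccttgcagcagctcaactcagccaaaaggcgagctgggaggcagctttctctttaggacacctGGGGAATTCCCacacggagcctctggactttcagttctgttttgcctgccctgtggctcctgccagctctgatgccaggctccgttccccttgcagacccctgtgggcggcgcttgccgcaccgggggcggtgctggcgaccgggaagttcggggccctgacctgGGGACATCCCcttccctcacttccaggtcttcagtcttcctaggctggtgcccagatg
The Tlr9 window held the hexamer once on each strand and the Tlr8 window once on the minus strand of the gene. The Tlr2 window held the NF-kB consensus at 3 positions on the gene's strand and 2 on the other, which overlap into 2 runs of capitals.

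Each value is a number of reads scaled to a library total of 1000000 (RPM) from a targeted panel with 1 amplicon per gene, so it does not scale with transcript length but does depend on how well an amplicon amplifies. The libraries held between 14527445 and 23388710 reads, and 1 read was worth 0.0428 to 0.0688 RPM. The members were read between 34 times (Tlr6 in NC3) and 7583 times (Tlr13 in NC2). All 10 members were above a mean of 1 RPM and none was lost to a filter. Tlr11 and Tlr12, the other mouse family members in the table, were near the lower end. Tlr11 was read at 3.92, 0.812 and 3.99 RPM in the normocapnia libraries and at 0.385, 1.26, 1.999 and 3.86 RPM in the hypercapnia libraries. Tlr12 was read at 0.669, 0.043 and 0.069 RPM in normocapnia and at 1.16, 0.301, 0.437 and 4.27 RPM in hypercapnia. Neither passed the test (adjusted p = 0.915 for both by limma across all genes).

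Macrophage markers were read in every library beside those of satellite cells, although the cells are labelled as Pax7-positive stem cells. Sums of reads on different amplicons do not compare transcript numbers between the lists. The 10 macrophage markers summed to 11262 to 33761 RPM in normocapnia and 18622 to 22641 RPM in hypercapnia, and the 8 satellite cell markers to 95.05 to 1547 RPM and 235 to 720 RPM. Pax7, which defines satellite cells, was read at 268, 8.25 and 4.34 RPM in NC1 to NC3 and at 21.5, 20.1, 79.5 and 59.6 RPM in HC1 to HC4. Lyz2, a lysozyme of myeloid cells, was between 8354 RPM (NC1) and 29108 RPM (NC3) and made up most of the macrophage sum in every library. Of the macrophage list C1qa was at most 0.452 RPM, while C1qb was at 158 to 1061 RPM. Adgre1, the macrophage antigen F4/80, was called higher in hypercapnia, and 0 genes of the other marker lists were called. Adgre1 was the 1 gene called of 10 macrophage markers, of which 6 had positive and 4 negative log2 fold changes. Of the neutrophil markers S100a8 ran from 6.63 to 52.9 RPM, and Ly6g, Mpo and Elane were each at most 0.171 RPM. In bulk RNA, fewer cells of a type and less RNA per cell cannot be told apart. Xist was present in NC1, NC2, HC1 and HC2, and Y-linked transcripts in NC3, HC3 and HC4; the labels give no sex. The library NC3 also stood apart in that 16.6% of its reads fell on 10 genes, beside 8.36% to 12.1% in the others.

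By mean panel reads over the 7 libraries the order was Tlr7 (240 RPM), Tlr13 (195), Tlr4 (157), Tlr8 (146), Tlr9 (93.7), Tlr1 (55.4), Tlr5 (38.9), Tlr2 (28.9), Tlr3 (10.9) and Tlr6 (4.40). This is an order of reads on the panel and not of transcript number. All 9 pairs of neighbours in it had overlapping ranges over the libraries, and for 4 of them the order held in only 4 of 7 libraries. Tlr7 was the most read member in 4 libraries and Tlr13 in the other 3. The 10 genes summed to 506, 1095 and 1182 RPM in normocapnia and to 1182, 1243, 753 and 826 RPM in hypercapnia, so the groups overlapped. NC1 had the lowest sum of the family and also the highest satellite cell sum. Without NC1 the log2 fold change was 1.12 for Tlr9, -0.19 for Tlr4, -0.52 for Tlr5 and -0.53 for Tlr7. The endosomal receptors took 75.5%, 72.7% and 69.1% of the family's reads in normocapnia and 72.4%, 71.3%, 67.6% and 66.9% in hypercapnia.

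**Figure D1:**
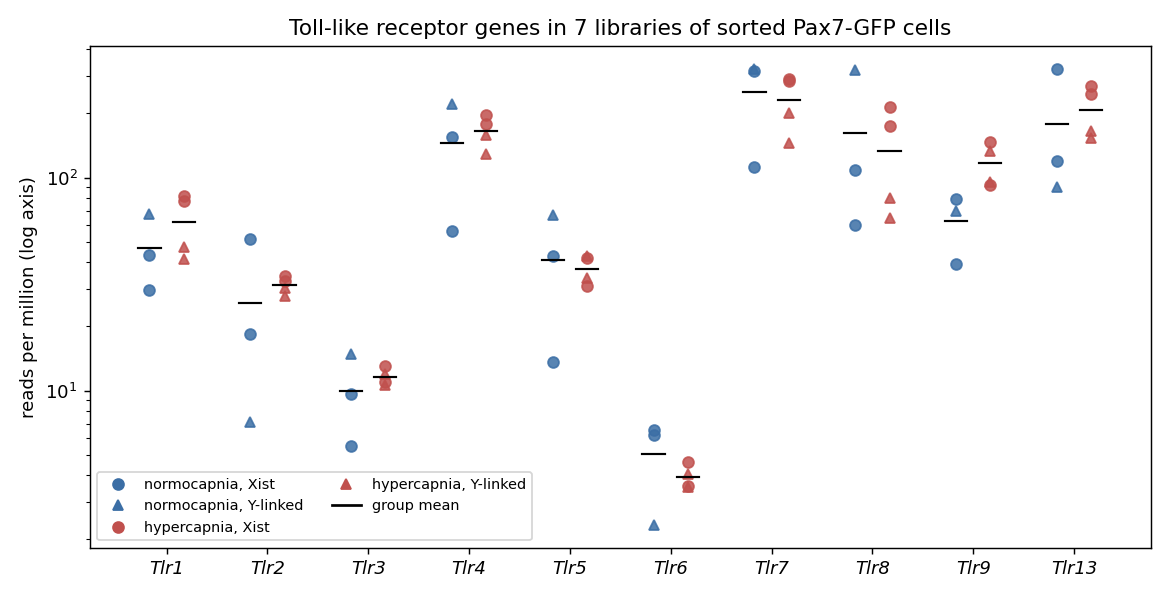
RPM of each Toll-like receptor gene (log axis) in the 3 normocapnia libraries (blue) and 4 hypercapnia libraries (red), with circles for libraries with Xist, triangles for libraries with Y-linked transcripts and bars for group means. Tlr9 is the member whose 4 hypercapnia values, from 92.7 RPM up, all lie above the 3 normocapnia values, which reach 79.5 RPM.

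The first question was whether hypercapnia moved the receptor genes. Tlr9, the endosomal receptor for unmethylated CpG DNA, was higher in hypercapnia. It was read at 79.5, 39.2 and 69.4 RPM in NC1 to NC3 and at 92.7, 146, 134 and 95.6 RPM in HC1 to HC4. Every hypercapnia library was above every normocapnia library, and the means were 62.7 ± 21.0 RPM (SD, n = 3) and 117 ± 26.9 RPM (SD, n = 4). The log2 fold change on the log2(RPM + 1) scale was 0.92 (SE 0.31, 95% interval 0.15 to 1.69), a 1.90-fold difference. It was under the threshold of 0.05 before adjustment, but the adjusted p was 0.915 by limma, so the difference failed the correction over 23930 genes, as did every gene by limma (lowest adjusted p 0.351, with 1114 genes at an unadjusted p under 0.05). The exact two-sided permutation test of the difference over the 7 samples gave p = 0.0286, the smallest that this design can give. Adjusted p for Tlr9 ran from 0.336 to 0.961 over the alternatives.

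A gene was called at an unadjusted p under 0.05 and a fold above 1.5. Of the 10 receptors, 1 (Tlr9) was called higher and 0 lower in hypercapnia, beside 1.43% of all genes called higher and 1.14% called lower. By edgeR on the recovered reads with a filter and by DESeq2, 0 receptors were called in either direction, and by edgeR without a filter Tlr9 alone was. The log2 fold change of Tlr9 was 0.78, 0.73 and 0.81 in that order. At an unadjusted p under 0.05, limma also found 1 receptor. Tlr9 was the 1 receptor whose groups did not overlap, beside 4.09% of genes averaging 1 RPM or more that were higher in every hypercapnia library and 3.63% that were lower. The call of Tlr9 ended without NC2, HC2 or HC3: without NC2, the library with its lowest value, the log2 fold change was 0.62 (adjusted p = 0.676 by limma), and without HC2 and HC3 it was 0.81 and 0.85 (adjusted p = 0.901 and 0.895). It also ended under median-of-ratios scaling (0.78) and with Xist as a covariate (0.90).

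The B cell and plasmacytoid dendritic cell genes, cell types known for high Tlr9, were not called. The 4 B cell markers in the table summed to 8.68 to 20.51 RPM in normocapnia and 12.1 to 14.5 RPM in hypercapnia. Siglech, a defining gene of plasmacytoid dendritic cells, was read at 5.58, 1.54 and 7.23 RPM in normocapnia and at 2.57, 4.12, 17.5 and 33.6 RPM in hypercapnia. Bst2 of the same list, named after its values were seen, was at 44.6, 103 and 83.3 RPM in normocapnia and at 268, 256, 117 and 78.3 RPM in hypercapnia. The whole list of 5 genes summed to 189 to 292 RPM in normocapnia and 263 to 439 RPM in hypercapnia. Averaged over the 5 genes, log2(RPM + 1) came to 3.41, 3.20 and 3.25 in normocapnia. It came to 3.45, 3.68, 3.75 and 3.89 in hypercapnia, without overlap but with HC1 close to NC1. The share of all genes without overlap is given above for single genes and not for such averages. The list was mixed, with 3 genes positive and 2 negative, Tcf4 (-0.07) and Cd300c (-0.14), and 3 of the 5 averaged 1 RPM or more. The part of the B cell and plasmacytoid dendritic cell genes in the Tlr9 result was not tested. Set against the macrophage receptor gene Csf1r, one of 2 ratios chosen after their values were seen, Tlr9 was at 23.6, 7.29 and 16.5 reads per 100 reads of Csf1r in normocapnia and at 24.4, 33.4, 39.3 and 24.9 in hypercapnia, without overlap. Set against Adgre1, the macrophage gene called higher, it was at 73.0, 26.3 and 98.4 reads per 100 reads in normocapnia and at 23.6, 34.1, 88.3 and 52.0 in hypercapnia, and the groups overlapped. As a share of the reads of the 10 receptors it was 15.7%, 3.58% and 5.87% in normocapnia and 7.85%, 11.8%, 17.7% and 11.6% in hypercapnia, and these overlapped. With the macrophage marker score as a covariate the log2 fold change of Tlr9 was 1.10, and the gene remained called (adjusted p = 0.783 by limma). That score averages 10 genes, of which 6 were positive and 4 negative. The part of macrophage content in the Tlr9 result was not tested.

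The other 9 receptors did not pass the test and their groups overlapped, with adjusted p from 0.915 to 1 by limma and p from 0.371 to 1 by the exact permutation test. Tlr2, which pairs with Tlr1 or Tlr6 to bind lipoproteins, was read at 18.5, 51.5 and 7.09 RPM in normocapnia and at 34.5, 32.7, 30.2 and 27.7 RPM in hypercapnia. The hypercapnia values lay close together between NC1 and NC2, and the log2 fold change was 0.67 (SE 0.63, 95% interval -0.89 to 2.23). Without NC2 it was 1.36 and the gene was called (adjusted p = 0.523 by limma), and without NC3 it was 0.01. Tlr13, which binds bacterial ribosomal RNA, was read at 120, 324 and 90.0 RPM in normocapnia and at 247, 268, 153 and 165 RPM in hypercapnia. NC2 was again the highest library, the log2 fold change was 0.41 (SE 0.50), and without NC2 it was 0.96 and the gene was called (adjusted p = 0.583 by limma), while without NC3 it was 0.037.

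Tlr1 was read at 29.5, 43.2 and 67.3 RPM in normocapnia and at 77.5, 81.6, 47.0 and 41.4 RPM in hypercapnia. HC1 and HC2 were above every normocapnia library and HC3 and HC4 within their range, with a log2 fold change of 0.42 (SE 0.38). That of Tlr1 was 0.13 without NC1, 0.71 without NC3 and 0.14 by DESeq2, with no call. Tlr6, the least read member, was at 6.56, 6.16 and 2.34 RPM in normocapnia and at 4.62, 3.57, 4.06 and 3.52 RPM in hypercapnia. All its hypercapnia values lay between those of NC3 and NC2, with a log2 fold change of -0.20 (SE 0.31). Tlr4, the lipopolysaccharide receptor, was read at 55.8, 156 and 222 RPM in normocapnia and at 178, 197, 129 and 158 RPM in hypercapnia. Its log2 fold change was 0.39 (SE 0.49) and was negative without NC1, the low library (-0.19), and under edgeR and DESeq2. Tlr5, the flagellin receptor, was read at 13.6, 42.6 and 66.8 RPM in normocapnia and at 31.0, 41.7, 33.9 and 42.9 RPM in hypercapnia. NC1 and NC3 enclosed every hypercapnia value, and the log2 fold change of 0.12 (SE 0.54) was negative under median-of-ratios scaling, edgeR and DESeq2.

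Among the other endosomal receptors, Tlr3, which binds double-stranded RNA, was read at 9.68, 5.51 and 14.8 RPM in normocapnia and at 10.9, 13.1, 12.0 and 10.6 RPM in hypercapnia. Its log2 fold change was 0.29 (SE 0.30), with every hypercapnia value between NC1 and NC3. Tlr7, which binds single-stranded RNA, was read at 113, 318 and 323 RPM in normocapnia and at 291, 285, 145 and 202 RPM in hypercapnia. Every hypercapnia value lay between NC1 and NC2, and the log2 fold change was -0.03 (SE 0.48, 95% interval -1.22 to 1.17), so a change of 2-fold in either direction lies within the interval. Tlr8, a paralogue of Tlr7, was read at 59.8, 109 and 319 RPM in normocapnia and at 213, 174, 64.8 and 79.8 RPM in hypercapnia. Its log2 fold change was -0.12 (SE 0.73), and the ratio of Tlr7 to Tlr8 ran from 1.01 in NC3 to 2.92 in NC2, with the hypercapnia libraries between them.

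**Figure D2:**
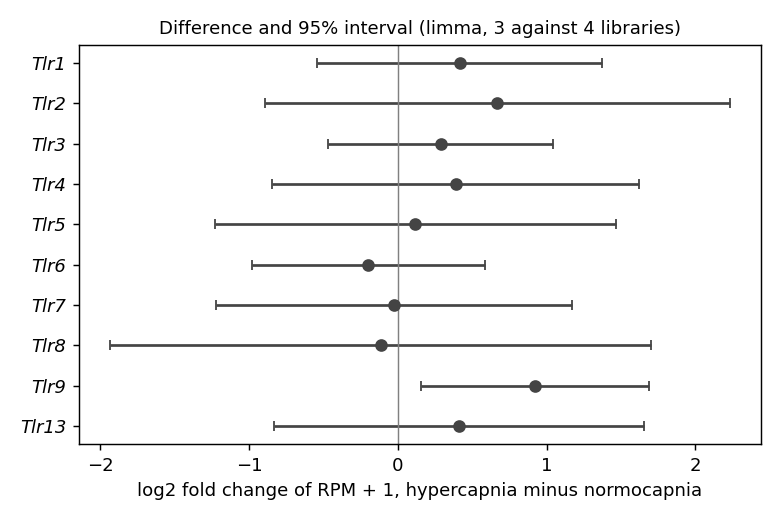
Log2 fold change of each Toll-like receptor gene, hypercapnia minus normocapnia, on the log2(RPM + 1) scale, with points for the limma estimate and bars for its 95% interval. The interval of Tlr9, from 0.15 to 1.69, lies above 0, and those of the other 9 genes cross 0.

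In the direction of the estimate, 7 of 10 members were positive and 3 negative (Tlr6, Tlr7 and Tlr8), with a median log2 fold change of 0.34. Over genes averaging 1 RPM or more the median was 0.16 and 62.1% were positive; under median-of-ratios scaling that median was 0.04, and Tlr5 became negative. The normocapnia libraries varied more than the hypercapnia libraries. The SD of log2(RPM + 1) was larger in normocapnia for 10 of 10 receptors, beside 81.1% of genes averaging 1 RPM or more, so most genes did the same. The highest normocapnia library was 2.03-fold (Tlr9) to 7.27-fold (Tlr2) above the lowest, and in hypercapnia the range was 1.24-fold (Tlr3) to 3.29-fold (Tlr8). For 8 of 10 members both the highest and the lowest of the 7 libraries were normocapnia libraries, the exceptions being Tlr1 and Tlr9, which were highest in HC2. How many of all genes had both extremes in normocapnia was not counted.

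**Figure D3:**
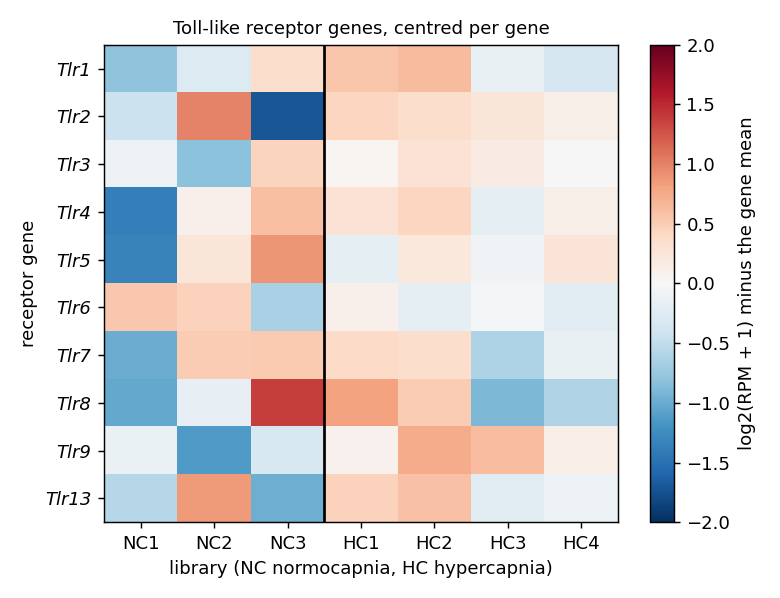
Log2(RPM + 1) of each Toll-like receptor gene minus its mean over the 7 libraries, with normocapnia libraries left of the black line and hypercapnia libraries right of it. The deepest colours are in the normocapnia columns, with Tlr2 low and Tlr8 high in NC3, and Tlr9 is positive in all 4 hypercapnia columns.

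The libraries with Xist (NC1 and NC2 against HC1 and HC2) and those with Y-linked transcripts (NC3 against HC3 and HC4) were compared separately, a choice made after the data were seen. Tlr9 was higher in hypercapnia in both sets, with a log2 fold change of 1.05 among libraries with Xist and 0.70 among the others, and it did not pass among the former (adjusted p = 0.800 by limma). The latter value rests on NC3 alone against HC3 and HC4 and is given without a test. Its interaction, the second difference minus the first, was -0.35 (SE 0.77, 95% interval -2.61 to 1.91). Tlr1, Tlr3, Tlr4 and Tlr8 were higher in both hypercapnia libraries than in both normocapnia libraries with Xist, and lower in both than in NC3 among the rest, a pattern that 3.48% of genes averaging 1 RPM or more had. Tlr6 went the other way, as did 18.6% of those genes. The interaction was -3.38 for Tlr8 (SE 0.57, adjusted p = 0.0861 by limma), -1.73 for Tlr1 (SE 0.34, adjusted p = 0.109) and 1.06 for Tlr6 (SE 0.21, adjusted p = 0.111). So 3 of 10 receptors were called for the interaction, beside 17.9% of all genes, in a fit that assumes NC3 to vary like the other groups. NC3 was the only normocapnia library with Y-linked transcripts, so a difference between the sets cannot be told apart from a difference of that library. The X-linked genes Tlr7, Tlr8 and Tlr13 were all higher in HC1 and HC2 than in HC3 and HC4, and so were the autosomal Tlr1, Tlr2 and Tlr4. The share of all genes with this order was not counted. Over the whole panel, HC1 with HC2 and HC3 with HC4 were the most alike pairs of libraries. The same libraries differed in Adgre1 (392 and 429 RPM against 151 and 184 RPM) and in the endothelial gene Pecam1 (28.2 and 26.2 RPM against 317 and 229 RPM), both named after their values were seen, and the part of these in the order was not tested. In normocapnia Tlr8 was highest and Tlr13 lowest in NC3.

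**Figure D4:**
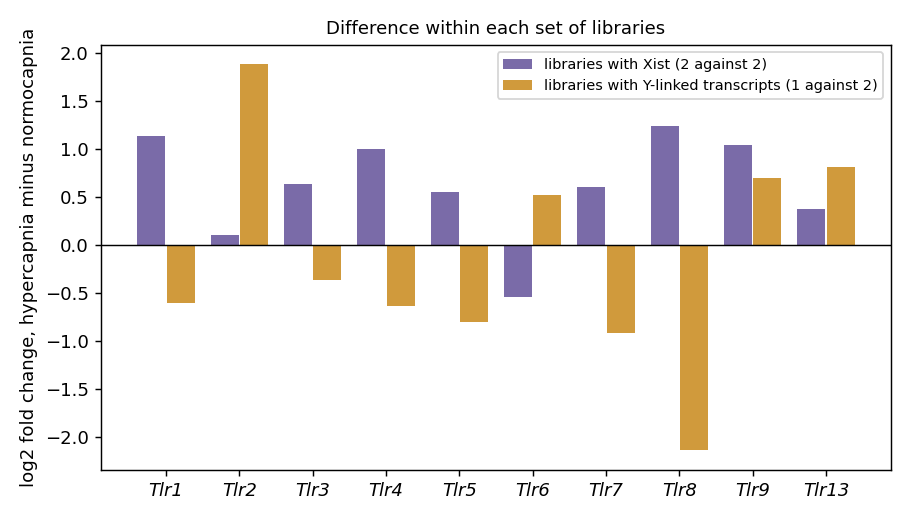
Log2 fold change of each Toll-like receptor gene, hypercapnia minus normocapnia, within the 4 libraries with Xist (purple) and within the 3 libraries with Y-linked transcripts (ochre), without error bars because the second set holds 1 normocapnia library. Tlr9, Tlr2 and Tlr13 are positive in both sets, and Tlr8 runs from 1.25 in the first to -2.13 in the second.

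The genes whose centred log2(RPM + 1) values were nearest to each receptor were found among 9606 genes averaging 5 RPM or more, by root mean square difference over the 7 libraries. For Tlr9 they were Zmat3 (0.20), P2ry13 (0.22) and Ly6e (0.22), and the nearest other receptor was Tlr3 at rank 111 (0.40). For Tlr13 they were Ankfy1 (0.09), Zfp36 (0.10) and Rab3d (0.11), and for Tlr1 they were Fyb, Galk2 and Clec2i (0.07, 0.07 and 0.14). For Tlr7 they were Cd200r1, Osbpl11 and Snx30 (0.13, 0.13 and 0.15). Blvrb (0.18) and Slc17a5 (0.30) were among the nearest 3 of Tlr8, and AI607873 (0.16) and Cd200r4 (0.17) among those of Tlr4. Tlr5 had a receptor among its nearest 3, with Fnip2 at 0.20, Papss2 at 0.21 and Tlr4 at 0.24. Tlr2 lay nearest to Ghdc, Serac1 and Rilpl2 (0.14, 0.16 and 0.16) and Tlr3 to Cipc, Lgals1 and Cog5 (0.11, 0.14 and 0.14). Tlr6 was below the level required.

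The rest of the pathway was described over 8 lists with 76 genes in the table, of which 2 were called higher, 1 was called lower and 73 did not pass, beside 1.43% and 1.14% of all genes called higher and lower. Their adjusted p was at least 0.827 by limma. The median log2 fold change of these genes was 0.08, below the 0.16 over genes averaging 1 RPM or more, a level that 74 of the 76 reached. Groups did not overlap for 3 genes that were higher in hypercapnia (Ctsb, Cxcl10 and Hsp90b1) and for 6 that were lower (Peli2, Tab3, Traf6, Ikbkg, Tnip1 and Tnip2), beside 4.09% and 3.63% of genes averaging 1 RPM or more. The count of genes called higher rose to 6 when the fit was limited to genes averaging 1 RPM or more, with Ccl4, Cd180, Irf7 and Pik3ap1 beside Ctsb and Cxcl10.

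Among co-receptors, 0 of 6 genes were called. Cd14, which hands lipopolysaccharide to Tlr4, was at 626, 3031 and 431 RPM in normocapnia and at 1138, 1112, 861 and 814 RPM in hypercapnia. Cd36, a scavenger receptor, averaged 636 RPM over the 7 libraries with a log2 fold change of -0.64 (SE 0.67). Without NC1 it was -1.41 and the gene was called lower, without NC3 it was -0.065, and edgeR and DESeq2 gave -1.23 to -1.33 with no call. Cd180, a Toll-like receptor homologue of the cell surface, was at 99.96, 106 and 174 RPM in normocapnia and at 342, 354, 172 and 161 RPM in hypercapnia, with a log2 fold change of 0.97 (SE 0.40) and a call in 6 of 20 alternatives. Its partner Ly86 had a log2 fold change of -0.44 (SE 0.33). HC1 and HC2 were high for Cd180 and the other 2 hypercapnia libraries were below NC3.

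Of the 6 chaperone and trafficking genes, 0 were called. Unc93b1, which carries the endosomal receptors out of the endoplasmic reticulum, was at 1310, 1365 and 676 RPM in normocapnia and at 2056, 2265, 1245 and 1434 RPM in hypercapnia, with a log2 fold change of 0.67 (SE 0.35) and a call in 2 of 20 alternatives. Hsp90b1, the chaperone that folds most of the family, was at 1433, 730 and 1529 RPM in normocapnia and at 2157, 1588, 1586 and 2124 RPM in hypercapnia. Its groups did not overlap, with a log2 fold change of 0.66 (SE 0.31). That value was 0.32 without NC2 and 0.83 with the macrophage covariate, where Hsp90b1 was called. Without NC3 the log2 fold change of Unc93b1 was 0.34. Cnpy4 and Ap3b1 had log2 fold changes of 0.27 and 0.01.

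Of the 5 receptor-processing proteases, Ctsb, the lysosomal protease cathepsin B, was called higher. It was read at 3547, 5768 and 2030 RPM in normocapnia and at 12103, 11710, 7799 and 8147 RPM in hypercapnia, so the lowest hypercapnia library was above the highest normocapnia library. The log2 fold change was 1.49 (SE 0.39, adjusted p = 0.836 by limma), and the call ended in the fit whose prior variance follows the mean (adjusted p = 0.881). Lgmn and Ctsl, an endopeptidase and a cathepsin that also cut Tlr9, had log2 fold changes of 0.39 and -0.61, and Ctsk, read at a mean of 2.06 RPM, had 0.34. Ctsl was at 9997 RPM in NC3 and at 980 to 2630 RPM in every other library, and DESeq2 called it lower (-1.62).

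Of the 5 adaptors, 0 were called. Myd88, the adaptor shared by most of the family, was at 91.1, 107 and 188 RPM in normocapnia and at 134, 129, 137 and 114 RPM in hypercapnia, with a log2 fold change of 0.07 (SE 0.26). Pik3ap1, an adaptor to phosphoinositide 3-kinase, was at 141, 199 and 87.4 RPM in normocapnia and at 358, 441, 212 and 184 RPM in hypercapnia. Its log2 fold change was 1.05 (SE 0.43), and it was called in 10 of 20 alternatives, among them DESeq2, both edgeR fits (1.03 and 1.04) and the Xist covariate (1.25). It was 0.74 without NC3 and 0.68 with the macrophage covariate, where it was not called. Ticam1 and Ticam2, adaptors of Tlr3 and Tlr4, had 0.33 and 0.75, and Ticam2 was called in 3 of 20 alternatives.

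Among 18 kinases and ubiquitin ligases in the table, Peli2 was called lower and 0 were called higher. Peli2, a ubiquitin ligase that acts on Irak1, was at 15.6, 25.3 and 10.3 RPM in normocapnia and at 4.71, 5.08, 7.12 and 7.79 RPM in hypercapnia, with a log2 fold change of -1.27 (SE 0.33, adjusted p = 0.828 by limma). It was called in 19 of 20 alternatives, with an adjusted p of 0.0250 by DESeq2, where the log2 fold change was -1.61. Traf6, the ubiquitin ligase downstream of Myd88, was at 90.8, 75.9 and 95.2 RPM in normocapnia and at 60.5, 58.7, 69.7 and 73.7 RPM in hypercapnia. Its groups did not overlap, but its log2 fold change of -0.40 (SE 0.12) was under the fold required. Tab3, which links Traf6 to the kinase Map3k7, had a log2 fold change of -0.42 (SE 0.11), likewise under the fold required. The more abundant Tab2, Map3k7 and Tbk1, read at means of 260, 193 and 160 RPM, had log2 fold changes of 0.59, 0.07 and 0.55.

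Of 9 transcription factor genes, 0 were called. Irf7, the interferon regulatory factor downstream of Tlr7 and Tlr9, was at 52.5, 85.3 and 10.9 RPM in normocapnia and at 210, 343, 105 and 71.7 RPM in hypercapnia. Only HC4 fell within the normocapnia range, and the log2 fold change was 2.01 (SE 0.89). Irf7 was called in 7 of 20 alternatives, among them edgeR with and without a filter (1.93 in both), DESeq2 (1.91), the fit without NC2 (2.60) and the Xist covariate (2.41). It was 1.18 without NC3 and 1.35 with the macrophage covariate, where it was not called. Irf3 had 0.95 (SE 0.60) and Nfkb2 0.60, which without NC3 were 0.24 and 0.12, and Irf3 was called in 1 of 20 alternatives, with the Xist covariate (1.17). The abundant Fos and Jun had 0.05 and -0.21.

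Of 11 inhibitors, 0 were called. Tnip1 and Tnip2, which bind the deubiquitinase Tnfaip3, were lower in every hypercapnia library, with log2 fold changes of -0.52 and -0.54 (SE 0.15 and 0.19) that were under the fold required. Each was called lower in 5 of 20 alternatives, DESeq2 among them (-0.71 and -0.77). Tnip1 was at 57.7, 79.9 and 55.0 RPM in normocapnia and at 44.1, 42.0, 49.6 and 40.5 RPM in hypercapnia. Tnfaip3 was at 152, 1167 and 114 RPM in normocapnia and at 606, 463, 250 and 352 RPM in hypercapnia, with NC2 the highest. The log2 fold changes of Nfkbia, Tollip and Rnf216 were -0.27, 0.29 and -0.38.

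Of 16 target genes, 1 was called higher and 0 lower. Cxcl10, an interferon-induced chemokine, was at 68.9, 79.4 and 24.5 RPM in normocapnia and at 151, 86.7, 187 and 109 RPM in hypercapnia, without overlap. The log2 fold change was 1.30 (SE 0.50, adjusted p = 0.915 by limma). The call ended without NC1, NC3, HC1, HC3 or HC4, where the log2 fold change ran from 0.78 to 1.51, and with the macrophage or satellite cell score as a covariate (1.23 in both). In all it ended in 8 of 20 alternatives. Ccl4 had a log2 fold change of 1.35 (SE 0.64) and Ifnb1, near the lower end at a mean of 2.15 RPM, 1.05. Ccl4 was called in 3 of 20 alternatives, among them the fit without NC2 (2.03), and Ifnb1 in 1 of 20, DESeq2 (1.93). The cytokine Il1b was at 1061, 2243 and 210 RPM in normocapnia and at 469, 244, 1776 and 1214 RPM in hypercapnia, with wide overlap. Il6, named after its values were seen, had a log2 fold change of -1.40 (SE 0.86) by limma and was not called. It was called lower by edgeR with and without a filter (-2.09 and -2.10) and by DESeq2 (-2.12). Cxcl2 and Nfkbiz had log2 fold changes of -0.64 and 0.15 and were highest in NC2. Of the 6 endogenous ligand genes in the table, 0 were called.

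**Figure D5:**
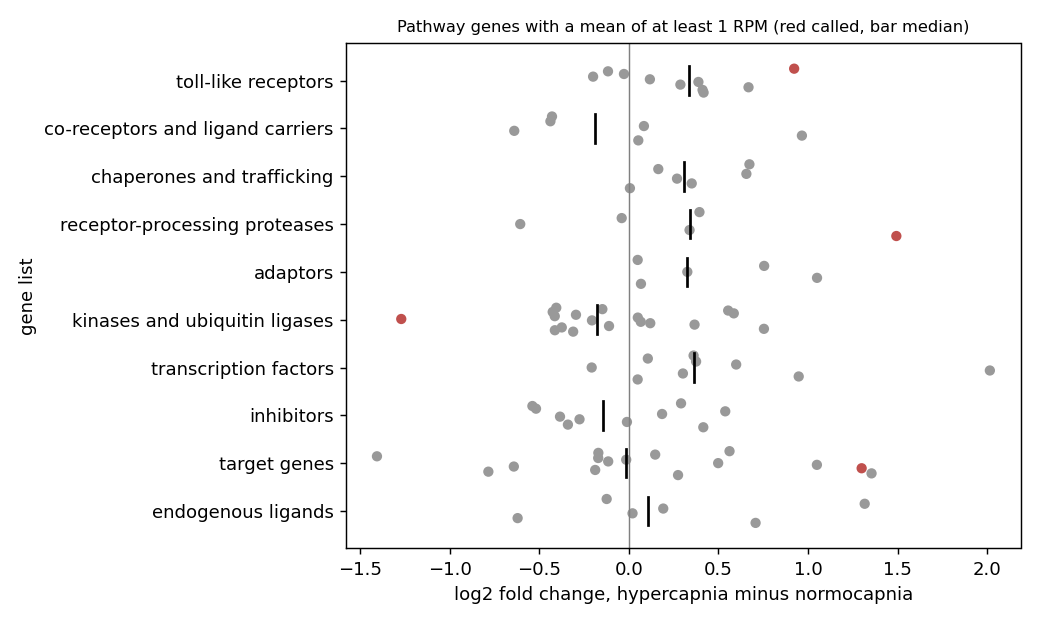
Log2 fold change, hypercapnia minus normocapnia, of the genes of each list that averaged 1 RPM or more, with 1 point per gene, red for called genes and a black bar for the median of the plotted genes. The called genes are Tlr9, Ctsb and Cxcl10 on the right and Peli2 on the left, at -1.27.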

How the data were processed

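RNA of sorted Pax7-GFP cells in 7 libraries was sequenced by the authors with a targeted amplicon panel on an Ion Torrent instrument. The deposited table holds RPM (reads scaled to a library total of 1000000) for 23930 genes. Neither aligner nor build is given in the sources used here, and the submitters' notes name the Transcriptome Analysis Console. In each library 100% of values were whole multiples of the value of 1 read within 0.05 reads, so whole reads were recovered for count tests. Groups came from the sample titles. The labels tie no library to an animal, so p-values measure the spread between these samples, which may be technical. The 10 members, the pathway lists and the markers were chosen with earlier results of these data known. Listed genes were named by a fixed rule: the receptors, in each pathway list the 3 genes with most reads and, above a mean of 1 RPM, the 3 of lowest p, all called pathway genes, the 3 nearest genes of each receptor above 5 RPM, and defining markers. Genes named for not overlapping were chosen after their values were seen. A few genes that the rule names are not reported here.

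Unfiltered log2(RPM + 1) values of all genes entered the main test, limma (version 3.58.1, R 4.3.3), with Benjamini-Hochberg adjustment; a gene was called at an unadjusted p under 0.05 and a fold above 1.5, the thresholds of the study. Alternatives were pseudocounts of 0.1 and 5 RPM, quantile and median-of-ratios scaling, leaving out genes that average under 1 RPM, a prior variance that follows the mean, edgeR 4.0.16 with and without a filter, DESeq2 1.42.0, each library left out, a replicate block, and macrophage, satellite cell and Xist covariates. The fits within libraries with Xist or with Y-linked transcripts and their interaction were added after the data were seen. The promoter motifs were settled after the windows were seen. The scripts were tested on simulated data. No 2 libraries agreed within sampling noise (lowest chi-square per degree of freedom 24.6 over 21 pairs). That lowest value was for HC1 with HC2, HC3 with HC4 came next at 27.3, and every other pair was at 104.6 or more. The tests count all 4 hypercapnia libraries as separate samples.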

Additional observations from a re-analysis of the deposited data

Results flagged for a closer look

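For 5 receptors the exposure effect in the libraries with Y-linked transcripts lay apart from that in the libraries with Xist. The value given is the interaction on the log2 scale, the difference in the former minus that in the latter. It was -3.38 for Tlr8, -1.73 for Tlr1 and 1.06 for Tlr6, which were listed because the interaction passed an unadjusted limma test (adjusted p = 0.0861, 0.109 and 0.111). That fit assumes NC3 to vary like the other groups, so its p-values do not test whether the exposure acted differently in the 2 sets. It was -1.63 for Tlr4 and -1.0 for Tlr3 (adjusted p = 0.436 and 0.356 by limma), which were listed because every hypercapnia library lay on one side of normocapnia in one set and on the opposite side in the other. All 5 rest on NC3, the only normocapnia library with Y-linked transcripts. No hypercapnia value of a receptor stood apart from the other 3 by Dixon's criterion, and the normocapnia group of 3 was too small for it.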

How the results depend on the processing

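With 3 against 4 libraries and wide normocapnia spread, the 95% intervals of Tlr5, Tlr7 and Tlr8 include 2-fold changes in both directions. Over 710 alternative values of 34 genes, 10 of them exact permutation tests that repeat the estimate of a receptor, 603 kept direction and call, 20 lost the call, 53 gained it and 34 changed sign. Tlr9 kept its sign in all 22 refits, from 0.62 to 1.12. The causes of the changes below were not tested.

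Tlr3 was -0.042 by DESeq2 and -0.37 in libraries with Y-linked transcripts. Tlr4 was -0.075 and -0.031 by edgeR with and without a filter, -0.13 by DESeq2 and -0.64 in libraries with Y-linked transcripts. Tlr5 was -0.030 under median-of-ratios scaling, -0.44 and -0.39 by edgeR with and without a filter, -0.49 by DESeq2, -0.013 with the Xist covariate and -0.79 in libraries with Y-linked transcripts. There Tlr1 was -0.60 and Tlr6 0.52. Tlr7 was 0.034 under quantile normalization, 0.12 with the satellite cell covariate and 0.60 in libraries with Xist. Tlr8 was 0.077 with the satellite cell covariate and 1.25 in libraries with Xist. Tlr13 was -0.054 with the macrophage covariate, and Ctsk -0.029 under quantile normalization. Leaving out 1 library gave -0.044 to 0.59 for Tlr3, -0.19 to 0.80 for Tlr4, -0.52 to 0.59 for Tlr5, -0.58 to 0.010 for Tlr6, -0.53 to 0.23 for Tlr7 and -0.66 to 0.54 for Tlr8.

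Receptors called higher were 0 under median-of-ratios scaling, edgeR with a filter, DESeq2 and the Xist covariate, and 0 to 2 with 1 library left out (2 without NC2, which were Tlr2 and Tlr13). In libraries with Xist 1 was called, Tlr1 (1.13) in place of Tlr9. In libraries with Y-linked transcripts 2 were called higher (Tlr2 and Tlr13) and 1 lower (Tlr8), but that fit sets NC3 alone against HC3 and HC4 and assumes it to vary like them, so its calls, here and in the counts that follow, do not test the exposure; with 1 library left out 0 were called lower. Pathway genes called higher numbered 6 with the filter on the mean, 4 by edgeR with or without a filter, 5 by DESeq2, 8 with the Xist covariate, 5 in libraries with Xist, 19 in those with Y-linked transcripts and 1 to 13 with 1 library left out (13 without NC2, 1 without HC1). Those called lower numbered 2 under median-of-ratios scaling, 3 and 2 by edgeR with and without a filter, 5 by DESeq2, 3 and 2 with the macrophage and satellite cell covariates, 2 and 5 in libraries with Xist and with Y-linked transcripts, and 1 to 7 with 1 library left out (7 without NC1). All genes called numbered 615, against 1049 by edgeR without a filter, 1304 by DESeq2 (29 at an adjusted p under 0.05), 1009 and 1316 with the satellite cell and Xist covariates, 1015 in libraries with Xist, 4976 in those with Y-linked transcripts and 376 to 1990 with 1 library left out (1990 without NC1, 1205 without NC2, 385 without HC1, 376 without HC2).

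The shared replicate numbers do not pair the libraries: deviations of same-numbered libraries correlated at -0.35, 0.50 and -0.04. With the replicate block, which has no partner for HC4, 0 receptors, 5 pathway genes higher and 0 lower were called, the calls of Tlr9, Peli2 and Cxcl10 ended (1.01, -1.38 and 1.38), and Tlr7 was 0.019 and Tlr8 0.070.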
